A study of Mus musculus with 2 samples.

Results

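The HOX cluster genes were read across both arrays of a study of the mouse ureter, as every probe, control spots aside, whose gene name in the array files is Hoxa, Hoxb, Hoxc or Hoxd followed by a number and nothing else. The rule found 45 probes for 39 genes, of 39429 probes for 29875 genes on the array. There were 11 Hoxa, 10 Hoxb, 9 Hoxc and 9 Hoxd genes, and 6 genes, Hoxa3, Hoxa9, Hoxa13, Hoxb3 and Hoxd11 among them, had 2 probes. Total RNA of ureters dissected at E14.5 had been compared between knockout embryos labelled Smad4cKO (UE) and control embryos. Each of the 2 arrays carried RNA of a knockout in one dye and RNA of a control in the other. The question was which transcripts are deregulated in the knockout ureters.

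The knockout samples carried the genotype Pax-cre/+;Smad4(fl/fl) in the sample labels and Pax2-cre/+;Smad4(fl/fl) in the series title. The controls carried Smad4(fl/?), so their second allele is not given, and the cre allele stands in the knockout labels alone. All samples were of the NMRI strain, and 150 ng of RNA went into each labelling. Replicate 1 was female with the knockout in Cy3 and the control in Cy5, and replicate 2 was male with the knockout in Cy5 and the control in Cy3, so sex and dye orientation cannot be told apart. Cre recombines only where its driver is active, whereas the RNA came from whole ureters. In such RNA, fewer cells of a type and less RNA per cell cannot be told apart. The labels do not state the number of embryos behind a sample.

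HOX genes encode homeodomain transcription factors that give cells their position along the head to tail axis. In the mouse they lie in Hoxa, Hoxb, Hoxc and Hoxd clusters, and genes at matching places in different clusters form numbered paralogue groups. Low numbers are expressed and act from the hindbrain backwards, high numbers in the tail end of the body, the distal limb and the urogenital tract. The group 11 genes act together in the metanephric mesenchyme, and mice that lack all of them form no kidney.

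The Hoxc11 probe lies in the homeobox itself. It is shown because this is the part of the gene family most alike between members, where a probe could in principle meet RNA of a paralogue. The capitals mark the codons of the tryptophan, phenylalanine, glutamine and asparagine of the DNA-recognition helix.
Hoxc11, mm9 chr15:102787022-102787081, plus strand: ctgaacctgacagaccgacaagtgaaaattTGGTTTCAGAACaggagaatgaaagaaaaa

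The polyadenylation signal letters AATAAA or ATTAAA, read on the probe's own strand, stood in 11 of the 45 HOX probes (24.4%), against 16.7% of all probes. The Hoxb13 probe was one of them, and 30 of its 60 bases are shown because its signal is described below, with the signal letters in capitals.
Hoxb13, mm9 chr11:96057872-96057901, plus strand: gagctgattgtgAATAAAttcggaagacga

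Nearly all of the HOX code was measurable in the ureter. A probe was taken as detected in a channel where the scanner software put 2 or more of its 4 spots well above background. By that measure 39 of the 45 probes were detected in all 4 channels, and each single channel detected 40. Across all probes of the array, 69.1% and 66.5% were well above background in the knockout channels, and 67.6% and 68.6% in the control channels of replicates 1 and 2. The filter on dim probes left 35 HOX genes to test. Of these, 34 were detected in all 4 channels, and Hoxc8, which acts in the brachial spinal cord and thorax, was not well above background in the control of replicate 1.

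The genes left out stood at or near the outer ends of their clusters. Hoxb1, a hindbrain gene of rhombomere 4, Hoxc12, and Hoxc13, a hair and nail gene, were not well above background in any channel. Hoxb13, known from the prostate and the tail, was detected in the control of replicate 1 alone. All genes of the Hoxa and Hoxd clusters were tested, Hoxa13 and Hoxd13 included.

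**Figure D1:**
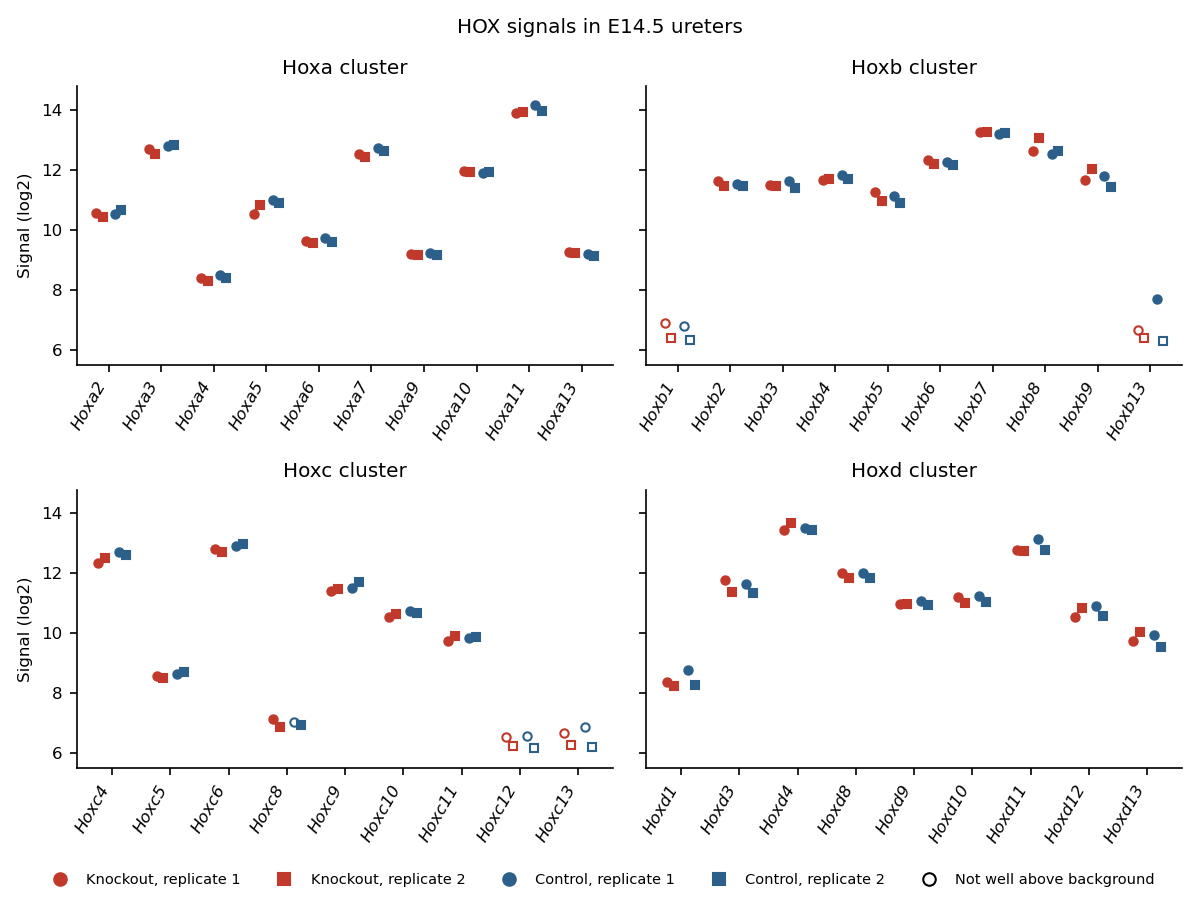
Signal (log2, vertical axis) of 38 HOX genes by cluster and paralogue number, with 1 point for each knockout (red, left) and control (blue, right) sample; circles are replicate 1 and squares replicate 2. Open points, not well above background, are limited to Hoxb1, Hoxb13, Hoxc8, Hoxc12 and Hoxc13, and levels of different genes come from different probes and are not comparable.

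On the mean of the arrays, knockout and control were close for every HOX gene tested. On a single array the log2 ratio reached 0.61, for Hoxb9 on replicate 2. None of the 35 passed the test (limma, Benjamini-Hochberg adjusted p under 0.05 over 20104 genes), where 0.328% of all genes tested passed, and none of the 35 reached p under 0.05 before adjustment, where 4.55% of all genes tested did. No HOX gene was at least 1.5-fold apart in the same direction on both arrays, a size that 0.368% of all genes tested reached. Every adjusted p of a HOX gene was 1.00, and the lowest unadjusted p was 0.0693, for Hoxb8. Ratios are given as log2 of knockout over control, with direction taken from the dyes in the labels. The authors' deposited table, read by its titles, runs the opposite way.

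The intervals give the range in which each mean change could lie. The 95% intervals of the 35 mean log2 ratios lay between -0.55, the lower limit of Hoxa5, and 0.61, the upper limit of Hoxb9. A fall beyond 1.47-fold or a rise beyond 1.53-fold thus lay outside the interval of every HOX gene tested, given the variance pooled over genes that the test uses. The background correction added an offset of 50, which makes the ratios of dim probes smaller. For Hoxc8, near background, a larger change could thus be missed. The mean ratio was within 1.2-fold for 34 of the 35, and Hoxb8 lay just beyond it. The SD between arrays had a median of 0.12 over the HOX genes, against 0.12 over all genes tested. The SD among the spots of a probe had a median of 0.05 on each array for the HOX genes.

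**Figure D2:**
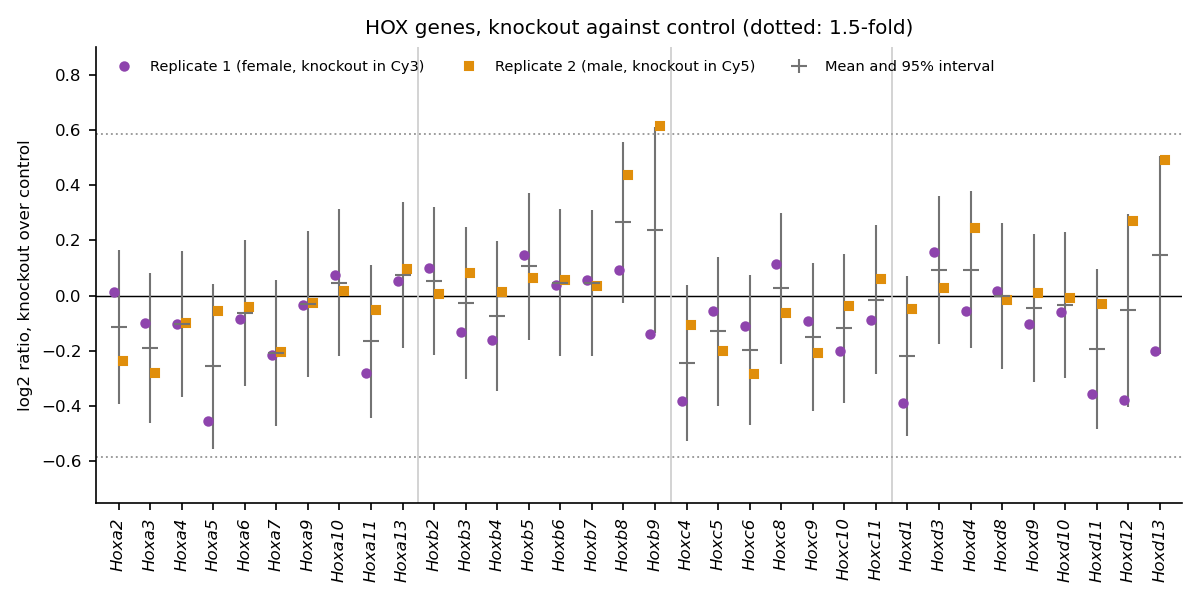
log2 ratio of knockout over control (vertical axis) for 34 HOX genes tested, in cluster order, with replicate 1 as circles, replicate 2 as squares, and the mean with its 95% interval in grey. Every interval drawn reaches across 0, and only the replicate 2 value of Hoxb9 lies beyond the dotted lines at 1.5-fold.

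The 4 clusters did not lean alike, although no member passed. The median log2 ratio over the 35 genes was -0.05, with -0.09 on replicate 1 and -0.02 on replicate 2, against -0.0044 over all genes tested. HOX genes were below 0 on both arrays in 15 cases (42.9%), where 24.6% of all genes tested were, and above 0 on both in 8 cases (22.9%), where 21.7% of all genes tested were. By cluster, the median was -0.10 for Hoxa, 0.05 for Hoxb, -0.13 for Hoxc and -0.03 for Hoxd. The Hoxd median changed side between arrays, with -0.10 on replicate 1 and 0.01 on replicate 2. Below 0 on both arrays were 7 of 11 Hoxa genes, 0 of 8 Hoxb genes, 5 of 7 Hoxc genes and 3 of 9 Hoxd genes. Above 0 on both were 2 Hoxa, 5 Hoxb, 0 Hoxc and 1 Hoxd gene. These are descriptions with no test of the difference between clusters, and the genes of a cluster share their samples.

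By position within the cluster, the median log2 ratio was -0.07 for paralogue groups 1 to 4 (11 genes tested), -0.0007 for groups 5 to 8 (11 genes) and -0.03 for groups 9 to 13 (13 genes). Those of groups 5 to 8 (0.02 and -0.04 on replicates 1 and 2) and 9 to 13 (-0.10 and 0.01) changed side between arrays.

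In the Hoxa cluster, Hoxa5, which patterns the lung and the cervical to thoracic skeleton, had the most negative mean. Its log2 signal was 10.53 and 10.82 in knockout ureters, against 10.99 and 10.88 in control ureters. Its log2 ratio was below 0 on both arrays, and most of the gap came from replicate 1. The mean log2 ratio was -0.26 ± 0.28 (SD, n = 2 arrays).

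Hoxa7, a gene of the thoracic region, differed by nearly the same amount on each array. Its log2 signal was 12.52 and 12.44 in knockout ureters, against 12.73 and 12.64 in control ureters. The mean log2 ratio was -0.21 ± 0.01 (SD, n = 2 arrays), with a 95% interval of -0.47 to 0.06. Its unadjusted p was 0.111 in limma, because the variance of a gene is drawn towards that of all genes.

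Hoxa3, needed for the thymus and parathyroid in the mouse, had log2 signals of 12.71 and 12.54 in knockout ureters, against 12.81 and 12.82 in control ureters. The ratio was below 0 on both arrays, with a mean log2 ratio of -0.19 ± 0.13 (SD, n = 2 arrays). Its other probe gave 0.01 on replicate 1 and -0.24 on replicate 2, so the direction on replicate 1 differed between probes. The Hoxa3 probe used, on the minus strand at mm9 chr6:52119087-52119146, overlaps the plus-strand probe of the antisense transcript Hoxaas2 at mm9 chr6:52119107-52119166, whose log2 ratios were -0.05 and -0.18.

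Hoxa10 and Hoxa13 read slightly higher in the knockout, short of the test. Hoxa10, which patterns the uterus and the lumbar region, had log2 signals of 11.97 and 11.94 in knockout ureters, against 11.89 and 11.92 in control ureters. Hoxa13, which patterns the end of the urogenital tract and gut, had 9.25 and 9.22 in knockout ureters, against 9.19 and 9.12 in control ureters. For both genes the knockout values were the higher ones on each array, by mean log2 ratios of 0.05 and 0.07. The second Hoxa13 probe gave 0.15 and 0.01.

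Hoxa4 was at -0.10 on each array and Hoxa9 at -0.03 on each. Hoxa2 and Hoxa6 had mean log2 ratios of -0.11 and -0.06.

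In the Hoxb cluster, Hoxb8, which acts in the spinal cord and in blood cell progenitors, had the highest mean of all HOX genes. Its log2 signal was 12.62 and 13.05 in knockout ureters, against 12.52 and 12.62 in control ureters. Most of the gap came from replicate 2, with log2 ratios of 0.09 on replicate 1 and 0.44 on replicate 2. The mean log2 ratio was 0.27 ± 0.24 (SD, n = 2 arrays), with a 95% interval of -0.03 to 0.56.

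Hoxb9, a thoracic gene next to it, went in opposite directions on the arrays. Its log2 signal was 11.67 and 12.04 in knockout ureters, against 11.81 and 11.42 in control ureters. Its log2 ratios were -0.14 on replicate 1 and 0.61 on replicate 2.

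Hoxb7, whose promoter is widely used to drive transgenes in the ureteric bud epithelium, was level. Its log2 signal was 13.27 and 13.27 in knockout ureters, against 13.21 and 13.23 in control ureters, and its mean log2 ratio was 0.04 with a 95% interval of -0.22 to 0.31. Hoxb2, Hoxb5 and Hoxb6 were likewise above 0 on both arrays, with means of 0.05, 0.11 and 0.05. Hoxb3 and Hoxb4 were below 0 on replicate 1 and above it on replicate 2, and the second probe of Hoxb3 gave 0.06 and -0.02.

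Hoxb13 had the largest difference of any HOX gene on a single array, and it rested on a single sample. On replicate 1 the 4 spots, net of local background, had intensities of 3.98, 9.38, 6.51 and 8.0 in the knockout channel, against 125, 171, 143 and 106 in the control channel. On replicate 2 the 3 spots used had 11.7, 34.9 and 13.1 in the knockout channel, against 7.06, 16.6 and 8.75 in the control channel. Over the spots used, signal above background thus appeared in the female control alone.

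On replicate 2 the remaining spot of the probe read 257 in the knockout and 195 in the control channel, well above background in both. It was left out because the scanner software marked it as an outlier. The log2 signals over the spots used were 6.66 and 6.38 in knockout ureters, against 7.68 and 6.28 in control ureters. Since the knockout was not well above background, only a bound holds. On replicate 1, the 1 of 2 arrays on which the control was detected, Hoxb13 was at least 1.80-fold lower in the knockout. It was not tested, and on replicate 2 the ratio was 0.10 between channels that were both not well above background.

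**Figure D3:**
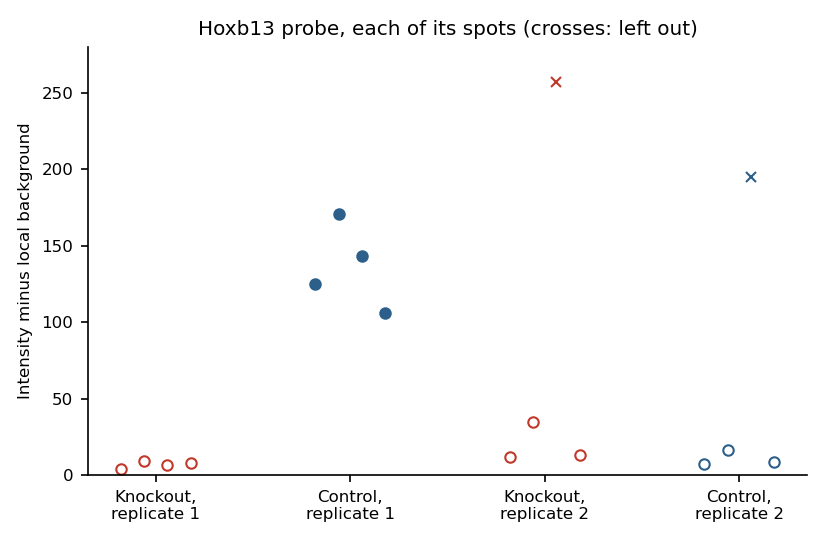
Intensity minus local background (vertical axis) of each spot of the Hoxb13 probe in knockout (red) and control (blue) ureters of replicates 1 and 2; filled points were well above background, open points were not, and crosses are the outlier spot left out. The 4 control spots of replicate 1, between 106 and 171, are the only filled points.

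In the Hoxc cluster Hoxc4, Hoxc6 and Hoxc9 read lower in the knockout on each array, short of the test. Hoxc4, a gene of the cervical and upper thoracic region, had log2 signals of 12.34 and 12.52 in knockout ureters, against 12.72 and 12.63 in control ureters. The mean log2 ratio was -0.24 ± 0.19 (SD, n = 2 arrays).

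Hoxc6, which acts in limb-level motor neurons and the mammary gland, had log2 signals of 12.82 and 12.71 in knockout ureters, against 12.92 and 12.997 in control ureters. Hoxc9, which sets thoracic motor neuron identity, had 11.42 and 11.49 in knockout ureters, against 11.51 and 11.70 in control ureters. The mean log2 ratios were -0.20 ± 0.12 and -0.15 ± 0.08 (SD, n = 2 arrays). Hoxc5 had a mean of -0.13, and Hoxc8 of 0.03 at a signal near background.

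Hoxc10, a gene of lumbar motor neurons and the hindlimb, had log2 signals of 10.54 and 10.64 in knockout ureters, against 10.74 and 10.68 in control ureters. The mean log2 ratio was -0.12 ± 0.12 (SD, n = 2 arrays), below 0 on both arrays. Hoxc13 read 6.67 and 6.27 in knockout ureters, against 6.86 and 6.22 in control ureters, all not well above background, so no ratio is given.

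In the Hoxd cluster, Hoxd1, expressed in sensory neurons that detect pain in the mouse, had log2 signals of 8.37 and 8.23 in knockout ureters, against 8.76 and 8.28 in control ureters. Most of the gap came from replicate 1, with log2 ratios of -0.39 on replicate 1 and -0.05 on replicate 2. The mean log2 ratio was -0.22 ± 0.24 (SD, n = 2 arrays).

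Hoxd10, which acts with Hoxc10 in the lumbar cord and hindlimb, was level. Its log2 signal was 11.20 and 11.02 in knockout ureters, against 11.26 and 11.03 in control ureters, with a mean log2 ratio of -0.03 and a 95% interval of -0.30 to 0.23. Hoxd3 was above 0 on both arrays (mean 0.09), Hoxd4 and Hoxd9 changed side between arrays, and Hoxd8 had a mean of -0.0007.

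Hoxd13, which shapes the digits and the end of the urogenital tract, had log2 signals of 9.76 and 10.05 in knockout ureters, against 9.96 and 9.55 in control ureters. Hoxd12 had 10.54 and 10.84 in knockout ureters, against 10.92 and 10.57 in control ureters. Both genes were lower in the knockout on replicate 1 and higher on replicate 2.

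The group 11 genes, which the kidney needs, were likewise without a call. Hoxa11 had log2 signals of 13.89 and 13.92 in knockout ureters, against 14.17 and 13.97 in control ureters, and a mean log2 ratio of -0.16 ± 0.16 (SD, n = 2 arrays). Hoxd11 had 12.79 and 12.75 in knockout ureters, against 13.15 and 12.78 in control ureters, and a mean of -0.19 ± 0.23. Hoxc11, measured through its homeobox probe, had 9.74 and 9.92 in knockout ureters, against 9.83 and 9.86 in control ureters, and a mean of -0.01 ± 0.11. Hoxa11 and Hoxd11 were thus below 0 on both arrays with most of the gap on replicate 1, and Hoxc11 changed side. The second Hoxd11 probe gave -0.15 and -0.14, and the antisense transcript Hoxa11os gave 0.06 and -0.04.

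Of 10 kidney partners and targets of the group 11 proteins, all were tested and none passed. Their median log2 ratio was -0.02, with -0.27 on replicate 1 and 0.27 on replicate 2. Osr1, an early regulator of nephron progenitors, had the highest mean at 0.34 ± 0.11 (SD, n = 2 arrays, limma adjusted p = 0.81). Eya1 and Six2, partner and target of HOX11 proteins in nephron progenitors, were named after their values were seen. Eya1 had log2 ratios of -0.71 and 0.57, and Six2 of -0.53 and 0.35, on replicates 1 and 2.

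Hoxb9, Hoxd12 and Hoxd13 had the widest gaps between arrays among the HOX genes tested. Of the 35, 8 were brighter in Cy5 on both arrays (22.9%), which is lower in the knockout on replicate 1 and higher on replicate 2, and 27.1% of all genes tested were. The 8 were Hoxb3, Hoxb4, Hoxb9, Hoxc11, Hoxd4, Hoxd9, Hoxd12 and Hoxd13. No Hoxa gene was among them, and Hoxd gave 4 of its 9.

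Markers of neurons and glia had the same order of signs. All 11 were tested, 9 were brighter in Cy5 on both arrays, and their median log2 ratio was -0.45 on replicate 1 and 0.63 on replicate 2. The summed linear signal of these markers was 108000 and 125000 in knockout ureters, against 155000 and 122000 in control ureters, and none of them was undetected. Markers of nephron progenitors and kidney stroma (6 of 6 tested) had medians of -0.34 and 0.20. Of these 6, only 2 were brighter in Cy5 on both arrays, 2 were below 0 on both and 2 above 0 on both. Skeletal muscle markers (8 of 9) had medians of 0.64 and -0.02. The part of these cells in the HOX values was not tested. The order was not limited to markers of neurons and glia. Cy5 was the brighter dye on both arrays for 5 of 10 kidney partners and targets of the group 11 proteins. The same held for 6 of 11 TALE cofactors of HOX proteins and 9 of 20 chromatin regulators, and for 0 of the 8 skeletal muscle markers tested.

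**Figure D4:**
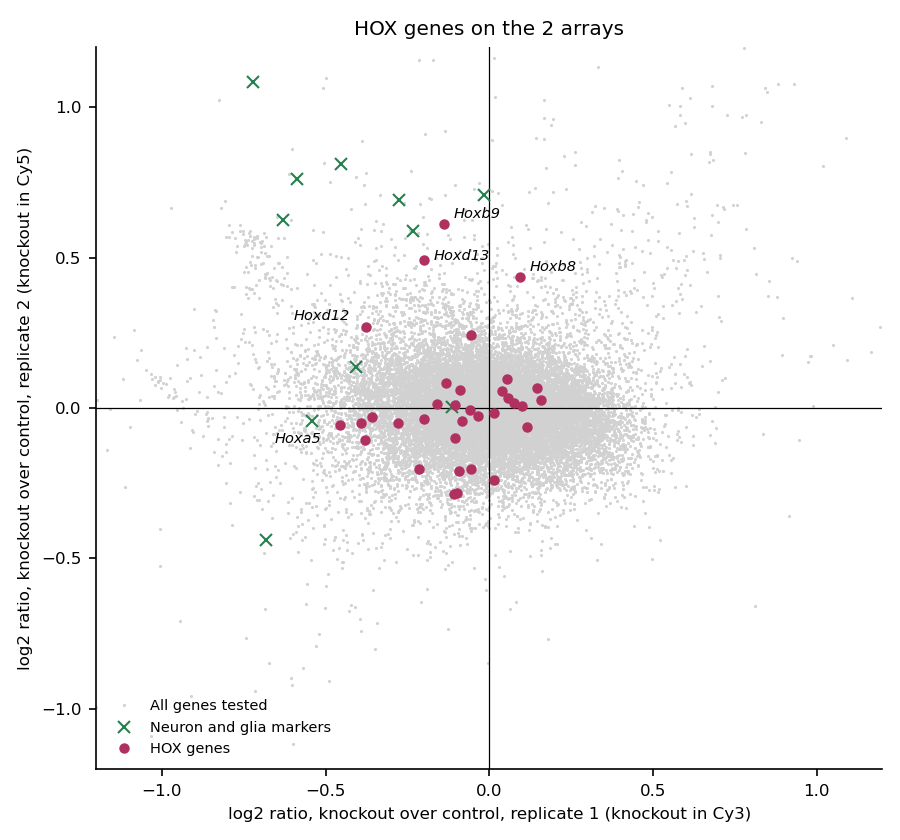
log2 ratio of knockout over control on replicate 1 (horizontal) and replicate 2 (vertical) for all genes tested (grey), markers of neurons and glia (crosses) and 34 HOX genes (points); 66 genes beyond 1.2 on either axis, none of them a HOX gene, are not drawn. Most HOX genes lie within the bulk of all genes, while Hoxb9, Hoxd12 and Hoxd13 lie in the upper left part with 9 of the 11 neuron and glia markers.

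HOX proteins bind DNA with TALE homeodomain cofactors of the MEIS and PBX families. Of 11 TALE genes all were tested and none passed, with a median log2 ratio of -0.10, made of -0.24 on replicate 1 and 0.01 on replicate 2. Meis1 had log2 signals of 15.72 and 15.80 in knockout ureters, against 16.17 and 15.87 in control ureters, a mean log2 ratio of -0.26. Meis2 had a mean of -0.13, again nearly all from replicate 1.

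The clusters are held silent by Polycomb proteins and opened by trithorax proteins. Of 20 listed chromatin regulators of the clusters, these and others, all were tested and none passed, and their median log2 ratio was -0.05. Phc2, a Polycomb subunit, had the largest mean at -0.24, and the Polycomb reader Cbx2 and Men1, a partner of the trithorax methyltransferases, had -0.15 each.

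Retinoic acid and CDX factors set the early HOX pattern. Of 12 genes of these and other upstream signals, Gdf11 and Gbx2 among them, 7 were tested and none passed, with a median log2 ratio of -0.10. Cdx1, Cdx2, Cdx4, Cyp26c1 and Gbx2 did not meet the filter on dim probes. Rara, a retinoic acid receptor, was at -0.25 and -0.26 on the arrays, and Rarg, another, had a mean of -0.22. Cyp26b1, which breaks down retinoic acid, gave -0.76 on replicate 1 and 0.23 on replicate 2.

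Of 16 listed genes and noncoding transcripts that lie in or beside the clusters, 12 were on the array, 11 were tested and none passed. Hoxb5os, an antisense transcript of the Hoxb cluster, had log2 ratios of 0.16 and 0.42, the highest mean of this list at 0.29. Evx1, a homeobox gene beyond Hoxa13, had 0.07 and 0.44, and Hoxaas3, within the Hoxa cluster, had -0.12 and -0.35. Hottip, transcribed from the Hoxa13 end, was not well above background in any channel.

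Promoter sequence was available for 24 starts of 22 HOX genes, from RefSeq on GRCm38.p6, and was read over the 250 bases before each start. The SMAD palindrome GTCTAGAC was in 0 of the 24, against 0.167% of 32851 mouse promoters. The palindrome GGCGCC, whose letters occur in GC-rich SMAD sites, was in 5 of the 24 (20.8%), against 9.59% of all promoters. These were promoters of Hoxa10, Hoxd1, Hoxd3, Hoxd11 and Hoxd13. The mean log2 ratios of these genes were 0.05, -0.22, 0.09, -0.19 and 0.15, in that order. A link between the letters and the ratios was not tested, and the promoters were not matched for GC content. Both letter strings read the same on either strand. The Hoxd1 window is shown because it holds GGCGCC 3 times, in capitals. A match of letters is a description of sequence and not a binding site.
Hoxd1, GRCm38.p6 chr2:74762730-74762979, plus strand: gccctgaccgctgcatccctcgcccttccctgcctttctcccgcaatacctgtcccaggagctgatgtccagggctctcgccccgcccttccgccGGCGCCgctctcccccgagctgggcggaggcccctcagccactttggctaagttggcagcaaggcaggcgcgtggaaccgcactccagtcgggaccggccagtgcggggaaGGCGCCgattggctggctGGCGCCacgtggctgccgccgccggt

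Smad4 had log2 ratios of -0.58 and -0.08 and a mean of -0.33 ± 0.36 (SD, n = 2 arrays, limma adjusted p = 1.00), so it cannot check the labels. Of 12 urothelium markers, 3 (Upk1a, Upk1b and Upk3a, which encode plaque proteins of the urothelium) passed and were higher in the knockout, by 2.57-fold, 2.47-fold and 2.94-fold. Of 11 markers of ureteric mesenchyme and smooth muscle none passed. All markers of these lists were tested. No tested marker of duct and gonad (4 of 7 tested), endothelium (5), macrophages (5) or blood (4) passed either.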

How the data were processed

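The deposited scanner files give, for every spot, the intensity of both dyes as read with Agilent Feature Extraction 10.7.3.1, named in the submitters' processing notes. Per the file headers they also hold a log10 ratio of Cy5 over Cy3. A table deposited by the authors gives each probe a score in the form of a signed fold, with its scaling and centring not given here. Its signed log2 correlated with knockout over control at -0.822 and -0.739 on the arrays, so it was turned before use as an alternative.

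Here the mean signals were used, after normexp background correction (offset 50) and loess within each array, in which control spots had weight 0. Signals were not scaled between the arrays, so knockout and control are compared within an array. Spots marked as outliers were dropped, the 4 spots of each probe averaged, and the ratio of replicate 1 turned in sign. The filter on dim probes asked that, in at least 1 genotype, 2 or more spots exceed background clearly on both arrays, and 26522 of 39429 probes met it. A gene was its brightest kept probe. limma 3.58.1 (R 4.3.3) gave a two-sided test of the mean of 2 log2 ratios, adjusted by Benjamini-Hochberg across 20104 genes. Each gene had 1 residual degree of freedom, and the pooled prior had 9.21. Nothing in the labels says that the arrays came from separate litters. The p-values rest on the spread between the 2 arrays, for each gene drawn towards that of all genes. That spread may be technical. The number of arrays limits the precision. The bound for Hoxb13 set the control signal of replicate 1 against the higher of the knockout signal and the lowest knockout signal of a probe well above background on that array.

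All 39 genes may be named. Given in full are the 10 tested genes with the largest absolute mean log2 ratio among those with 1 sign on both arrays, and paralogue groups 10, 11 and 13. From other lists, those that passed and up to 3 with the largest absolute mean are named. Some results are not reported here. Members and lists were chosen with earlier results of these data known. Probe coordinates come from the array design (mm9), and exons of that build were not used here. RefSeq names replaced those of 28328 probes by accession, of 3400 by symbol and of 243 by an outdated symbol; 7458 stayed as in the files. The fit was tested on simulated data. The alternatives tried were the scanner's processed signals, uncorrected background, a normexp offset of 0, median centring, no filter or a stricter one, the mean over probes, the authors' values, a prior with trend, 4 unpaired channels, a rule of size and each array alone. Plots were drawn with matplotlib 3.10.9.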

Additional observations from a re-analysis of the deposited data

How the results depend on the processing

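No HOX gene passed the test under any of the 10 alternative fits or the rule of size, while the genes passing among all tested ran between 0 (median centring, no filter) and 246 (Agilent's processed signals), against 66. Without the filter 1 of 39 HOX genes, Hoxa7, was under 0.05 before adjustment, against 3.67% of all genes. In the 4-channel fit with no replicate block, 0 HOX genes passed, with 52 passing among all genes. The lowest adjusted p of limma was 0.994, shared by several HOX genes, and Hoxb9 had the lowest unadjusted p. The other counts of genes passing were 115 with no background correction, 131 with an offset of 0, 89 with the stricter filter, 89 with the mean over probes, 191 with the authors' deposited values and 197 with a trended prior.

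The Hoxa, Hoxb and Hoxc medians kept their sign under every alternative run, and the Hoxd median under each but 1, turning to 0.0112 without replicate 1 and reaching -0.1032 without replicate 2. The Hoxa median was -0.1245 with processed signals and ran from -0.0842 to -0.0563 with an array left out. The Hoxb median was 0.0664 with median centring and ran from 0.0468 to 0.0612 with an array left out. The Hoxc median was -0.1519 with processed signals, -0.149 with an offset of 0, -0.1144 with median centring, -0.1183 with no filter, -0.1394 with the stricter filter and -0.1499 with the authors' deposited values, and ran from -0.1059 to -0.0915 with an array left out. With an array left out, the median of paralogue groups 1 to 4 ran from -0.0988 to -0.049, that of groups 5 to 8 from -0.0417 to 0.0158 and that of groups 9 to 13 from -0.1032 to 0.0112. The near-zero median of groups 5 to 8 (-0.0007) was also above 0 under 5 other alternatives, up to 0.0062 with processed signals.

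Hoxc11 turned to 0.0086 with median centring, and ran from -0.0894 to 0.0606 with an array left out. Hoxd13 ran from -0.199 without replicate 2 to 0.4927 without replicate 1. The cause was not tested. With 2 arrays, leaving one out gives a value with no test. Signal over background limits Hoxb1, Hoxb13, Hoxc8, Hoxc12 and Hoxc13.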
